A study of Mus musculus with 55 samples.

Results

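The genes described here are p53 (Trp53) and 9 genes of its network, chosen by symbol. They are the p53 inhibitors Mdm2 and Mdm4, the cell cycle genes Cdkn1a and Ccng1, the death genes Bax, Bbc3 and Pmaip1, the survival signalling gene Phlda3 and the stress gene Sesn2. All 10 symbols were found among the 55421 genes of the main count table and among the 35976 genes of a second table. RNA-seq had been performed on hematopoietic stem and progenitor cells sorted from mouse bone marrow, in 46 libraries of the first set (22 WT and 24 Tet2-/-) and 9 of the second. The Tet2-/- mice were Tet2 f/f, Mx1-Cre on a C57BL/6 background, in which poly(I:C) was given in 5 doses from 4 weeks of age, and the cells were taken 16 weeks after induction. Mx1-Cre is driven by an interferon-responsive promoter and deletes in blood cells and in other interferon-responsive tissues. The treatment of the WT mice is not given in the sources used here. The 6 sorted populations were LT-HSC and ST-HSC (both from the Lin- Sca1+ cKit+ gate and negative for CD48, with CD150 present on the first only), CMP, GMP and MEP (Lin- cKit+ Sca1- cells separated by CD34 and CD16/32) and CLP (Lin- cKit+ with intermediate Sca1, and CD127+). WT LT-HSCs and ST-HSCs had 3 libraries each and the other groups 4. The second set held LT-HSCs labelled with 3 genotypes, 3 libraries each, WT, Sting-/- and the double knockout Tet2;Sting DKO, which carries Tet2 f/f and Mx1-Cre on the Sting-/- background.

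p53 is a transcription factor that is made constantly and destroyed quickly. Mdm2 is the ubiquitin ligase that marks it for the proteasome and is itself induced by p53, so the pair forms a negative feedback loop, and Mdm4 binds and blocks the activation domain of p53. When DNA damage or another stress stabilises the protein, p53 turns on Cdkn1a (the CDK inhibitor p21), Bax, Bbc3 (Puma) and Pmaip1 (Noxa) of the mitochondrial death pathway, Ccng1 (cyclin G1, which acts back on Mdm2), Phlda3 (a PH-domain protein that restrains Akt) and Sesn2 (a sestrin that restrains mTORC1). In blood stem cells p53 is known for its roles in quiescence, in the response to irradiation and in competition between clones. The activity of p53 is set mostly at the protein, which RNA-seq does not read, so the data below are levels of the transcripts of p53, its inhibitors and its targets.

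In mm10, Trp53 lies at chr11:69580359-69591873 (+), Mdm2 at chr10:117688875-117710758 (-), Mdm4 at chr1:132959484-133030561 (-), Cdkn1a at chr17:29090976-29100727 (+) and Ccng1 at chr11:40748552-40755311 (-). Bax lies at chr7:45461697-45466898 (-), Bbc3 at chr7:16308393-16318205 (+), Phlda3 at chr1:135766119-135769136 (+) and Sesn2 at chr4:132492032-132510501 (-), all protein-coding. Exons of Cdkn1a share 273 bases with AC167363.2 on the opposite strand and those of Bax share 192 bases with Gm45808 on the same strand, and no strand setting of the counting is given, so those bases can be counted to either gene. The other 8 genes share no exon base with another gene.

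RefSeq promoter windows (GRCm38.p6, 250 bases before to 50 bases after the start) were found for 9 of the 10 genes, 13 windows in all. They were searched for the p53 decamer, the palindromic consensus of which 2 copies make a p53 response element, so that both strands read alike. A decamer was present in 8.36% of all 32851 windows in the table. A pair of decamers at most 13 bases apart, with at most 1 mismatch over both, was present in 1.09%, and an exact pair in 0.0731% (24 windows). Among the 10 genes, 5 had a decamer in a window (Cdkn1a, Bax, Ccng1, Mdm2 and Trp53), 3 had a pair (Cdkn1a, Bax and Ccng1), and the pair of Cdkn1a was exact. The windows of Mdm4, Bbc3, Phlda3 and Sesn2 held none of these letters, which says nothing of elements elsewhere in the genes. The 220 bases from -250 to -31 are shown for the 3 genes with a pair and for Mdm2, because Cdkn1a, Bax and Mdm2 are the members whose mean was lower in Tet2-/- cells in 6 of 6 populations below. Capitals mark the exact decamers and both decamers of the best pair of a window, a mismatched one included. In Cdkn1a a further decamer with 1 mismatch directly follows the one at -51. It also makes a pair with it and is left in lower case.
Cdkn1a, chr17:29090729-29090948, + strand, decamers starting at -73 and -51: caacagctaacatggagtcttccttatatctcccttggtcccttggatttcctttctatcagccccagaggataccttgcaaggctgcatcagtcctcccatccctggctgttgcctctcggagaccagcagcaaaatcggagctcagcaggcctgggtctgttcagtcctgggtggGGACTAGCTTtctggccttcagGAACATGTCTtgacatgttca
Bax, chr7:45466929-45467148, - strand, decamers starting at -212 and -201: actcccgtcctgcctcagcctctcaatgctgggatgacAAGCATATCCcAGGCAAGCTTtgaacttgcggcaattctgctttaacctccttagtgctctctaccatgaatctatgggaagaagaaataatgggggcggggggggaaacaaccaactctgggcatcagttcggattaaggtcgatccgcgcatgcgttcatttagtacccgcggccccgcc
Ccng1, chr11:40755317-40755536, - strand, decamers starting at -195 and -185: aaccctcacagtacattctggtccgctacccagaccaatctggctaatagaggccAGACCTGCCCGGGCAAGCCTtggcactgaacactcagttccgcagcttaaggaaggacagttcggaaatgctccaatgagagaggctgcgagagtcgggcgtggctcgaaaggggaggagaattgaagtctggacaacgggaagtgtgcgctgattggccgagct
Mdm2, chr10:117710789-117711008, - strand, a single decamer starting at -186: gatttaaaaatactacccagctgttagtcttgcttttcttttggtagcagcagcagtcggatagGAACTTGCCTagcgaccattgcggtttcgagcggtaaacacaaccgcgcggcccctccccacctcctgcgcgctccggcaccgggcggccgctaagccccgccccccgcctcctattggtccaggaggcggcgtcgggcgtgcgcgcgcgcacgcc
A match of letters is a description of the window and not a measured binding site.

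Libraries held 50458473 to 102148079 counted reads in the first set and 26776517 to 78682096 in the second, without molecular identifiers. Marker genes fitted the labels of GMPs and MEPs: the sum of Mpo, Elane, Prtn3, Ctsg and Fcgr3 was 31422 to 42255 CPM (counts scaled to library size with TMM factors) in WT GMPs, and that of Klf1, Gata1, Car1 and Epor was 12938 to 14566 in WT MEPs. The lymphoid genes Il7r, Dntt, Flt3 and Rag1 summed to 651 to 1282 in WT CLPs, with Rag1 at 0 in all 4. CLP libraries were mixed, with the GMP markers reaching 3103 in WT and 12145 in Tet2-/- libraries. The level of Tet2 overlapped between the genotypes in 6 of 6 populations (11.2 to 14.3 in WT and 12 to 40.4 in Tet2-/- LT-HSCs). A deletion of some exons can leave counts on the rest of a gene, so this level does not check the labels. No 2 libraries were identical.

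The first question was where in the hierarchy the p53 genes are expressed, in WT cells of the first set. Per kilobase of gene model (length from the deposited table), the 2 most abundant were Trp53 and Cdkn1a in 5 of the 6 populations, MEPs being the exception. The median level of Trp53 was 157 CPM per kb in MEPs, 138 in CMPs, 130.0 in GMPs, 93.6 in CLPs, 86.8 in ST-HSCs and 70.2 in LT-HSCs. Cdkn1a had 152 CPM per kb in ST-HSCs, above Trp53 there, and 11.8 in MEPs, below Bax, Ccng1 and Mdm4 there. Bax, Ccng1, Mdm2 and Mdm4 lay between 4.98 and 42.3 CPM per kb. Bbc3, Pmaip1, Phlda3 and Sesn2 were low, with at most 15.5 CPM per kb (Pmaip1 in GMPs). The levels differed among the 6 populations in 9 of the 10 genes by the F test (edgeR, adjusted p under 0.05), a share to be read against the 44.6% of all 20006 genes that passed the same test. The gene that did not pass was Sesn2 (adjusted p = 0.0544). With the replicate number as a block 6 genes passed (beside 38.1% of all genes), Mdm2, Ccng1 and Pmaip1 being lost (adjusted p = 0.0898, 0.0661 and 0.0548), and 6 also passed in each of the fits without WT replicate 2, 3 or 4 (31%, 29.6% and 39.3% of all genes). The TMM factors of WT CLP libraries were 0.516 to 0.713 and those of the other WT libraries 0.967 to 1.19, so CLP levels stand higher against the other populations than in plain CPM. Without TMM, an alternative added after the data were seen, 6 of the 10 members passed the F test (beside 49.6% of all genes), and Mdm4, Mdm2 and Ccng1 were lost (adjusted p = 0.806, 0.168 and 0.0658).

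**Figure D1:**
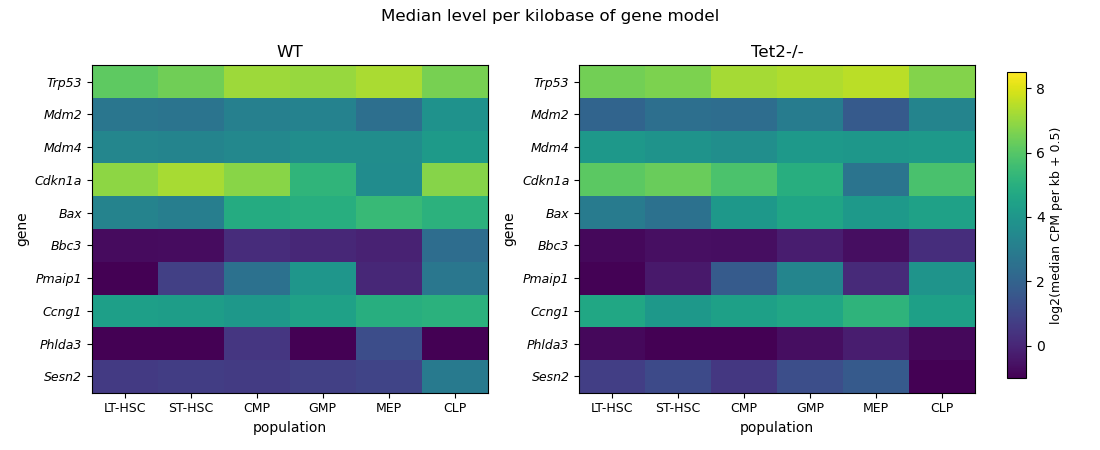
Median level of each of the 10 genes per kilobase of gene model, as log2(median CPM per kb + 0.5) in color, in the 6 populations (columns) of WT (left) and Tet2-/- (right) libraries. Trp53 and Cdkn1a form the brightest rows, Cdkn1a is darkest in MEPs in both genotypes, and Phlda3 is at or near 0 in most columns.

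Trp53 itself varied 2.25-fold between its highest and lowest WT mean (adjusted p = 2.37e-05). Its CPM was 328, 349.7, 403 and 366 in MEPs, 274, 319, 311 and 343 in CMPs, 311, 282, 281 and 362 in GMPs, 209.6, 259, 178 and 217 in CLPs, 165, 240.3 and 198 in ST-HSCs and 159.7, 163 and 160.1 in LT-HSCs. The stem cell libraries and CLPs were thus the lowest, and all 12 libraries of CMPs, GMPs and MEPs lay above every other WT library of the first set. In the order MEP, CMP, GMP, CLP, ST-HSC, LT-HSC, the step from GMP to CLP was without overlap (exact permutation p = 0.0286, two-sided). Without TMM CLPs were the lowest, with 91.4 to 149 CPM against 173 to 180.1 in LT-HSCs. The steps from MEP to CMP, CMP to GMP and CLP to ST-HSC overlapped, and that from ST-HSC to LT-HSC did not overlap, where the smallest exact permutation p for 3 libraries against 3 is 0.1. Of 50 such steps over the 10 genes, 7 had an exact p under 0.05 and none an adjusted one (smallest adjusted p = 0.204).

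Of the 2 inhibitors, Mdm4 had a smaller span than Trp53 and Mdm2 a larger one. Mdm4 varied 1.79-fold, with 130.2 ± 21.9 (SD, n = 4) CPM in CLPs and 72.7 to 89.6 in the means of the other 5 populations, and only the step from CLP to MEP was without overlap. Without TMM this height in CLPs was gone: their mean was 80.5 CPM, between 80.4 in ST-HSCs and 94.7 in GMPs, and no step was without overlap. Mdm2 varied 2.72-fold from 101 ± 39.5 (SD, n = 4) CPM in CLPs to 37.0 ± 4.61 (SD, n = 4) in MEPs, and all 5 of its steps overlapped. Without TMM its mean in CLPs was 60.4 CPM, below 76.4 in GMPs and 69.3 in CMPs. Its WT LT-HSC libraries read 76.4, 20.8 and 44.5 and the ST-HSC libraries 22.5, 82.2 and 42.8. These spreads within a group were as wide as the difference among populations.

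Cdkn1a, the CDK inhibitor p21, had a steeper gradient, 14.3-fold between ST-HSCs and MEPs. It stood at 508, 265 and 310.1 CPM in ST-HSCs, 332, 189 and 237 in LT-HSCs, 272, 255, 191 and 168 in CLPs, 243, 179.9, 224 and 228 in CMPs, 91.9, 82.5, 67.6 and 61.1 in GMPs and 39.6, 13, 30.3 and 17.8 in MEPs. LT-HSCs and CLPs overlapped with ST-HSCs and with CMPs, ST-HSCs lay above CMPs, GMPs lay below all of them and MEPs below GMPs. The place of CLPs depended on the scaling: without TMM they read 98.2 to 194 CPM, below every CMP and stem cell library (at least 206) and above every GMP library, and Cdkn1a was then called lower in CLPs than in ST-HSCs (-1.53, adjusted p = 0.00109). The same order of the 6 means was found in Tet2-/- cells, with a span of 13.9-fold. Cdkn1a fell from CMPs to GMPs (log2 fold change -1.51 ± 0.30 SE, adjusted p = 0.00492) and from CMPs to MEPs (-3.17 ± 0.32 SE, adjusted p = 1.73e-06). It was the only one of the 10 genes called in either comparison, where 1.54% and 5.52% of all genes were called lower. The call from CMPs to GMPs was lost without WT replicate 5 (-1.45, adjusted p = 0.091). Ccng1, cyclin G1, varied only 1.86-fold, from 58.4 ± 9.21 (SD, n = 4) CPM in CMPs to 109 ± 18.4 (SD, n = 4) in MEPs, and all 5 steps of its order overlapped.

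Bax, the effector that opens the outer mitochondrial membrane, ran the other way from Cdkn1a at the top of the hierarchy. Its CPM was 13.4, 19.8 and 17.5 in ST-HSCs and 25.5, 13.9 and 19.8 in LT-HSCs, against 64.4, 53.7, 60.7 and 66.9 in CMPs and 98.8, 83.8, 89.5 and 109 in MEPs. All 6 stem cell libraries were thus below all 16 libraries of the committed populations, and the span from MEP to ST-HSC was 5.62-fold. Bax rose from ST-HSCs to CMPs (1.86 ± 0.21 SE, adjusted p = 1.33e-05) and from ST-HSCs to CLPs (2.16 ± 0.21 SE, adjusted p = 3.45e-07). Bbc3, a BH3-only activator of Bax, was low except in CLPs, with 22.6, 36.3, 12.6 and 9.14 CPM there and at most 3.63 in any other WT library of the first set. Bbc3 also rose from ST-HSCs to CLPs (5.12 ± 1.13 SE, adjusted p = 0.00219). Bax and Bbc3 were the members called in that comparison, in which 10.2% of all genes were called higher, and both kept their calls without TMM (1.35 and 4.31). Pmaip1 (chr18:66458533-66465565, + strand), another BH3-only protein, was highest in GMPs (51.3, 23.3, 31.1 and 81.6 CPM) and ranged from 0.733 to 3.14 in MEPs, with all 5 steps of its order overlapping. None of the 10 genes was called between LT-HSCs and ST-HSCs (edgeR, 0.175% of all genes called), 0 had an unadjusted p under 0.05 (8.85% of all genes) and DESeq2 called 0 (3.82%).

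Phlda3 was counted in 2 WT populations of the first set only at more than trace level. It read 2.04, 0.687, 1.36 and 1.36 CPM in CMPs and 4.48, 2.43, 3.09 and 2.00 in MEPs, 12 reads in a single GMP library, and 0 in all libraries of LT-HSCs, ST-HSCs and CLPs. With 3.77% of all genes called higher in CMPs than in ST-HSCs, Phlda3 was called with Bax (5.55 ± 1.32 SE, adjusted p = 0.0269), a fitted value that depends on the prior count because the ST-HSC libraries are at 0. This call was lost when any WT replicate was left out (adjusted p from 0.0504 to 0.148). Sesn2 was at 14.0, 30.9, 23.8 and 0.47 CPM in CLPs and between 0.392 and 9.36 in every other WT library of the first set.

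The second question was whether loss of Tet2 alters these transcripts. Mdm2, Cdkn1a and Bax had a lower mean in Tet2-/- than in WT cells in 6 of 6 populations, Bbc3 in 5 of 6, and Trp53 and Mdm4 had a higher mean in 6 of 6. The calls (adjusted p under 0.05 and at least 2-fold) were few: Phlda3 in CMPs, Phlda3 and Bax in MEPs, and Bbc3 in the average over the 6 populations, all lower. At the same threshold 3.92%, 4.21% and 1.76% of all genes were called lower in those comparisons. The average takes the libraries as independent, so its p-values can be too small if populations of the same replicate number share a mouse. No member was called in LT-HSCs, ST-HSCs, GMPs or CLPs, where 0.0245%, 0.0185%, 4.37% and 0.00766% of all genes were called in either direction. At an unadjusted p under 0.05 (edgeR) there were 0 of 8 tested members in LT-HSCs, 1 of 9 in ST-HSCs, 5 of 10 in GMPs and 2 of 9 in CLPs, beside 5.16%, 6.13%, 17.3% and 3.65% of all genes. In CMPs and MEPs there were 7 of 10 and 6 of 10, beside 19.1% and 16.4%. DESeq2 called 0, 0, 0 and 1 member in LT-HSCs, ST-HSCs, GMPs and CLPs, beside 1.38%, 1.93%, 5.55% and 2.55% of the genes to which it gave an adjusted p. In bulk libraries a lower level can come from fewer cells that express a gene or from less RNA per cell, and these cannot be told apart.

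**Figure D2:**
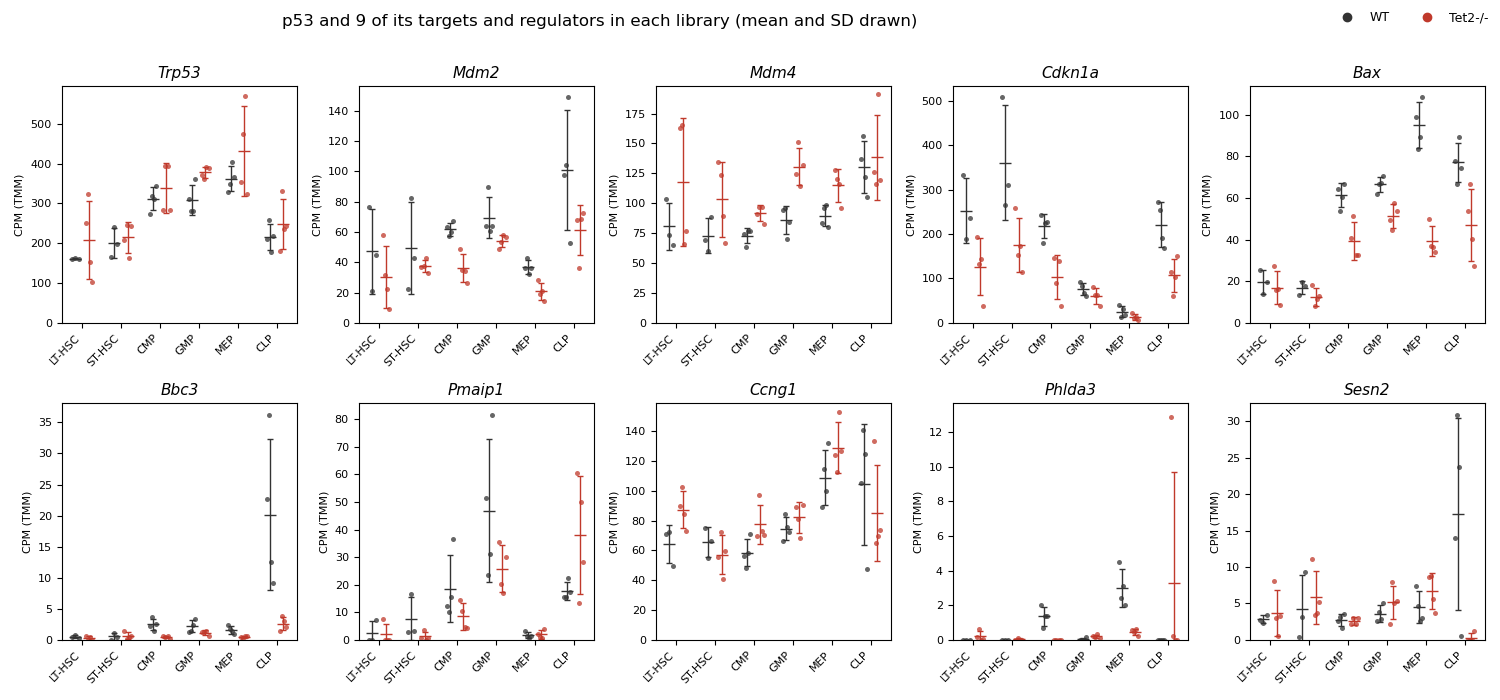
CPM (TMM) of each of the 10 genes in every library of the first set by population, WT in black and Tet2-/- in red, with the mean and SD drawn beside the points. Cdkn1a, Bax and Mdm2 have the red mean below the black one in all 6 populations, the 4 red Bax points in MEPs (34.2 to 50.1 CPM) sit below the 4 black ones (83.8 to 109), and each panel has its own axis.

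The median log2 fold change of the tested members was -0.72 in CMPs (3 positive and 7 negative), -0.31 in MEPs (5 positive and 5 negative) and -0.70 in CLPs (3 positive and 6 negative), against 0.03, 0.05 and 0.07 over all genes tested. It was 0.10 in LT-HSCs, -0.17 in ST-HSCs and -0.13 in GMPs, against 0.06, 0.04 and 0.03. Of 60 exact permutation tests (10 genes in 6 populations), 15 reached the smallest p that the design allows (0.0286), 13 of them lower and 2 higher in Tet2-/- cells. None passed after adjustment (smallest adjusted p = 0.114). The groups did not overlap in 14 contrasts on the lower side and 3 on the higher side. In CMPs these were 5 lower and 1 higher of 10 members, beside 6.96% lower and 5.49% higher of all genes. In MEPs 4 members were lower and none higher (6.45% and 3.47% of all genes), and in GMPs 2 were lower and 1 higher (6.01% and 4.84%). CLPs had 2 lower (1.4% lower and 1.41% higher of all genes), ST-HSCs 1 lower (3.93% and 2.74%) and LT-HSCs 1 higher (3.33% and 2.61%).

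Cdkn1a had a lower Tet2-/- mean in every population of the first set. In LT-HSCs the WT libraries read 332, 189 and 237 CPM and the Tet2-/- libraries 193, 132, 143 and 39.0. In ST-HSCs they read 508, 265 and 310.1 against 259.6, 154, 174 and 114, and in CMPs 243, 179.9, 224 and 228 against 146, 89.2, 140.1 and 38.6. Groups touched in LT-HSCs by a single library and were apart in ST-HSCs and CMPs. In CLPs WT libraries read 272, 255, 191 and 168 and Tet2-/- libraries 115, 60.1, 103 and 149.6, again without overlap, while GMPs (61.1 to 91.9 against 37.5 to 80.2) and MEPs (13 to 39.6 against 5.82 to 21.2) overlapped. The Tet2-/- mean was 47.3% of the WT mean in CMPs, 48.3% in CLPs, 48.6% in ST-HSCs, 50.1% in LT-HSCs, 50.1% in MEPs and 79.8% in GMPs. No single population passed (CMP -1.10 ± 0.35 SE, adjusted p = 0.102). The average over populations was -0.91 ± 0.17 SE (adjusted p = 0.000232), just under the 2-fold threshold, and with no fold threshold Cdkn1a, Bax, Mdm2, Mdm4 and Bbc3 were the 5 members that passed, where 6.94% of all genes did. Tet2-/- replicate 5 was the lowest library for Cdkn1a in 5 of 6 populations, and without it the average was -0.71. Cdkn1a passed the 2-fold threshold without WT replicate 3 (adjusted p = 0.000596) and without Tet2-/- replicate 2 (-1.10, adjusted p = 3.89e-05). Ccng1, the other cell cycle gene, had a mean of 58.4 CPM in WT and 77.7 in Tet2-/- CMPs, its groups overlapped in 5 of 6 populations, and in LT-HSCs the Tet2-/- libraries (89.6, 102, 84.2 and 72.7) were above the WT libraries (70.8, 72.5 and 49.3). The average for Ccng1 was 0.13 ± 0.10 SE (adjusted p = 0.697).

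The death gene Bax fell in MEPs. The 4 WT libraries read 98.8, 83.8, 89.5 and 109 CPM and the 4 Tet2-/- libraries 50.1, 36.8, 36.6 and 34.2. The highest Tet2-/- library was thus well under the lowest WT library, and the Tet2-/- mean was 41.4% of the WT mean (log2 fold change -1.28 ± 0.16 SE, adjusted p = 0.00132). This call held in 14 of 14 alternative settings. Bax did not overlap in CMPs either (64.4, 53.7, 60.7 and 66.9 in WT, 40.6, 51.6, 32.5 and 32.5 in Tet2-/-, adjusted p = 0.0573) or in GMPs (61.9, 66.9, 67.3 and 70.4 against 49.6, 44.5, 57.7 and 53.8, adjusted p = 0.0742). In CLPs the ranges were 66.6 to 89.4 and 27.3 to 66.9, and in LT-HSCs and ST-HSCs, where Bax is low, they also overlapped (13.9 to 25.5 against 8.58 to 27.5, and 13.4 to 19.8 against 7.86 to 18.1). Its average was -0.61 ± 0.11 SE (adjusted p = 0.000219). Bax had its highest mean in MEPs among WT populations, and in Tet2-/- cells MEPs came after GMPs and CLPs.

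Bbc3 fell in the average over the 6 populations (-1.41 ± 0.42 SE, adjusted p = 0.0311). In CLPs, its main site, the WT libraries read 22.6, 36.3, 12.6 and 9.14 CPM and the Tet2-/- libraries 1.46, 3.82, 3.01 and 2.11, so that the Tet2-/- mean was 12.9% of the WT mean (adjusted p = 1). In CMPs it read 2.22, 3.63, 1.48 and 2.60 against 0.562, 0.438, 0.687 and 0.147 (18.5%, adjusted p = 0.0504), and in MEPs 2.38, 1.70, 1.47 and 0.889 against 0.42, 0.35, 0.604 and 0.667 (31.7%, adjusted p = 0.154). The genotypes were apart in all 3, and overlapped in GMPs (1.31 to 3.43 and 0.538 to 1.40) and in both stem cell populations, where no library exceeded 1.39. The call in the average was lost in 6 of the 8 fits that left out 1 replicate number of a genotype, most without WT replicate 3 (-1.04, adjusted p = 0.284), and with no low-count filter (adjusted p = 0.0524). Pmaip1, the other BH3-only gene, overlapped in 6 of 6 populations: 51.3, 23.3, 31.1 and 81.6 CPM in WT GMPs against 35.4, 20.2, 17.1 and 30.2 in Tet2-/- GMPs, and 15.7, 15.6, 22.4 and 17.3 against 60.6, 13.2, 50.0 and 28.2 in CLPs, with the mean lower in GMPs and higher in CLPs.

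Phlda3 fell in the 2 populations that express it. In CMPs all 4 WT libraries had reads (2.04, 0.687, 1.36 and 1.36 CPM, 405 reads in all) and all 4 Tet2-/- libraries had 0, which against a floor of 3 reads over the group is at least 164-fold lower, a bound for counting error only (adjusted p = 0.00423). In MEPs the WT libraries read 4.48, 2.43, 3.09 and 2.00 CPM and the Tet2-/- libraries 0.543, 0.472, 0.604 and 0.201 (-2.66 ± 0.52 SE, adjusted p = 0.0154), 15.2% of the WT mean. Elsewhere it was at trace level, except for a single Tet2-/- CLP library at 12.9 CPM. The genotype difference of Phlda3 depended on the population (interaction, adjusted p = 0.0065), the only member for which it did with edgeR and all libraries, beside 2.65% of all genes. Sesn2 (adjusted p = 0.119) also passed that test with DESeq2 (adjusted p = 0.00224), with limma (adjusted p = 0.000753) and with edgeR without Tet2-/- replicate 5 (adjusted p = 0.000436). No average is given for Phlda3 because several groups are at 0. In MEPs its call was lost without WT replicate 2 (adjusted p = 0.0611) and in one fit of all 46 libraries (adjusted p = 0.845), and in CMPs with the replicate number as a block (adjusted p = 0.106) and in that one fit (adjusted p = 0.0515). Sesn2 was near 0 in Tet2-/- CLPs (0, 0, 0 and 1.23 CPM) where 3 of 4 WT libraries had 14.0 to 30.9 and the other 0.470 (adjusted p = 1), and its ranges overlapped in the other 5 populations.

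The 2 inhibitors differed in opposite directions. Mdm2 read 63.0, 57.3, 59.9 and 67.0 CPM in WT and 48.9, 34.7, 34.5 and 26.5 in Tet2-/- CMPs, and 36.5, 43.1, 31.9 and 36.4 against 28.2, 19.2, 20.8 and 14.6 in MEPs. In GMPs it read 63.6, 89.9, 60.3 and 64.0 against 48.9, 53.1, 57.9 and 56.8. The groups were apart in these 3 populations and the Tet2-/- mean was 58.5%, 56.0% and 78.0% of WT, so none reached 2-fold. At adjusted p alone Mdm2 passed in CMPs (-0.79 ± 0.18 SE, adjusted p = 0.0298) and in MEPs (-0.85 ± 0.21 SE, adjusted p = 0.0473), where 6.89% and 5.66% of all genes passed. In the stem cell populations and CLPs Mdm2 overlapped, and the average was -0.62 ± 0.16 SE (adjusted p = 0.00999). Tet2-/- replicate 5 was the lowest library for Mdm2 in 4 of 6 populations, and without it the average was -0.49. Over the alternative settings the adjusted p of Mdm2 reached 0.0689 in the average, 0.511 in CMPs and 0.497 in MEPs. Mdm4 was higher without overlap in CMPs (74.7, 63.4, 76.9 and 76.9 in WT, 90.7, 96.7, 96.7 and 82.4 in Tet2-/-) and GMPs (94.5, 96.0, 70.4 and 84.0 against 124, 151, 114 and 132), 126% and 151% of the WT mean. At adjusted p alone it passed in GMPs (0.57 ± 0.13 SE, adjusted p = 0.0235, beside 6.56% of all genes) and in the average (0.40 ± 0.10 SE, adjusted p = 0.00588). Trp53 passed no test in a single population, its ranges overlapped in 6 of 6, with 159.7 to 163 CPM in WT and 103 to 323 in Tet2-/- LT-HSCs and 328 to 403 against 325 to 571 in MEPs, and its average was 0.22 ± 0.09 SE (adjusted p = 0.177).

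**Figure D3:**
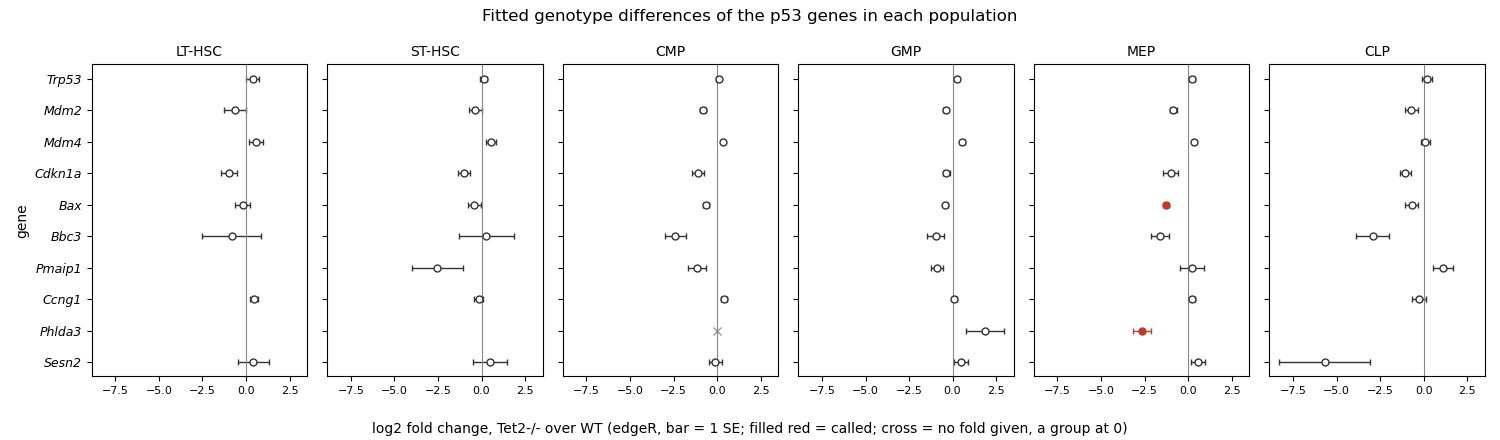
Fitted log2 fold change (Tet2-/- over WT, edgeR) of the tested members in each population with bars of 1 SE. Filled red points are the called values (Bax and Phlda3 in MEPs at -1.28 and -2.66), open points passed no call, and a cross marks a gene with a group at 0, for which no fold is drawn (Phlda3 in CMPs).

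Among the Tet2-/- populations 7 of the 10 members differed by the F test, beside 40.2% of all genes. The 3 that did not were Mdm4, Bbc3 and Sesn2 (adjusted p = 0.383, 0.199 and 0.163), and of these Mdm4 and Bbc3 had passed in WT. In fits leaving out 1 replicate number, 6 members passed without Tet2-/- replicate 2, 4 without replicate 3, 2 without replicate 4 (Cdkn1a and Bax) and 4 without replicate 5, beside 35.2%, 26.9%, 24% and 25.7% of all genes. Whether the pattern over populations differs between genotypes is the interaction test given above for Phlda3 and Sesn2.

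Other measured quantities moved with genotype in the same populations. The sum of 9 immediate early genes (Fos, Fosb, Jun, Junb, Egr1, Ier2, Nr4a1, Atf3 and Dusp1, which respond to handling and to signals within minutes) was 2033 to 3457 CPM in WT and 482 to 1008 in Tet2-/- CMPs, with 7 of 9 genes lower without overlap. It was 2319.6 to 3017 against 647 to 1315 in GMPs (4 of 9), 872 to 1101 against 203 to 429 in MEPs (5 of 9) and 15922 to 24832 against 3767 to 9282 in CLPs (5 of 9). Of all genes, 6.96%, 6.01%, 6.45% and 1.4% were lower without overlap in CMPs, GMPs, MEPs and CLPs. Tet2-/- replicate 5 had the lowest sum in each of these populations, and it was also the lowest library for Cdkn1a in 5 of 6 populations. The sums overlapped in LT-HSCs (1777 to 2416 and 1839.6 to 3199.9) and ST-HSCs (1418 to 2372 and 1558 to 2653). Of 6 cycling genes (Mki67, Top2a, Ccnb1, Ccna2, Cdk1 and Birc5), 4 were higher in Tet2-/- CMPs, where the sum was 1566 to 1783 against 875 to 1403 in WT. In GMPs 3 were higher and 1 lower (1223 to 1367 against 1009 to 1213), and likewise in MEPs (1327 to 1698 against 1171 to 1406). Higher without overlap were 5.49%, 4.84% and 3.47% of all genes in CMPs, GMPs and MEPs. The MEP markers summed to 469 to 1473 in WT and 2651 to 5454 in Tet2-/- CMPs, with 2 of 4 higher and 1 lower. In MEPs their sum overlapped (12938 to 14566 in WT and 13778 to 18806 in Tet2-/-, most of it Car1), while Klf1, the erythroid transcription factor, was 238 to 399 CPM in WT and 25.3 to 48.3 in Tet2-/- libraries, lower without overlap. Hemoglobin genes and Alas2 summed to 157 to 430.2 in WT and 80.5 to 106 in Tet2-/- MEPs, with 3 of 5 lower. The mitochondrial share of reads was 5.94% to 6.57% in WT and 7.85% to 8.37% in Tet2-/- CMPs, 3.64% to 4.60% against 4.74% to 5.09% in GMPs and 8.73% to 9.02% against 10.0% to 13.1% in ST-HSCs, and it overlapped in the other 3 populations. The part of these in the lower Cdkn1a, Bax, Bbc3, Mdm2 and Phlda3 was not tested.

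**Figure D4:**
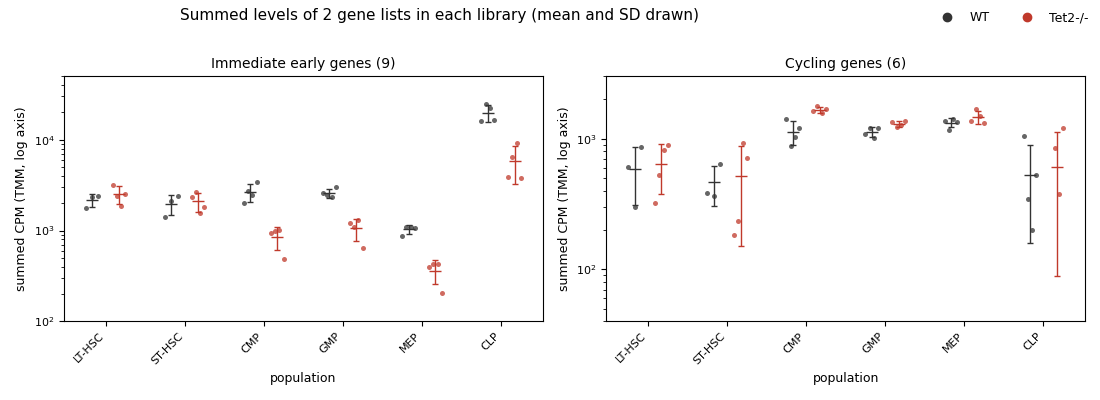
Summed CPM of 9 immediate early genes (left) and 6 cycling genes (right) in every library by population on log axes, WT in black and Tet2-/- in red, with mean and SD. The immediate early sums of the 2 genotypes are apart in CMPs, GMPs, MEPs and CLPs and overlap in LT-HSCs and ST-HSCs, and the cycling sums are apart in CMPs and GMPs.

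In CLPs the TMM scaling also differed by genotype. Its factors were 0.516 to 0.713 in WT and 0.740 to 1.08 in Tet2-/- CLP libraries, which shifts Tet2-/- against WT levels by -0.54 on the log2 scale, and in the other 5 populations the shift was 0.01 to 0.05. Without TMM, 59 of the 60 differences of means kept their direction, the exception being Ccng1 in CLPs (63.0 CPM in WT and 79.5 in Tet2-/-), and 55 of 60 kept their state of overlap. Cdkn1a then overlapped in CLPs and in ST-HSCs, Trp53 and Pmaip1 became higher without overlap in CLPs and Mdm4 in MEPs, and the counts became 12 lower and 6 higher. The sizes in CLPs moved as well, the means without TMM becoming 47.7 in WT and 45 in Tet2-/- CPM for Bax, 60.4 in WT and 54.0 in Tet2-/- for Mdm2, 138 in WT and 93.7 in Tet2-/- for Cdkn1a and 134 in WT and 226 in Tet2-/- for Trp53. Of the lymphoid markers, Rag1 was 0 in the 4 WT and 0.0594 to 19.3 CPM in the Tet2-/- CLP libraries, without overlap, and Cd79a was 293 to 646 in WT and 39.4 to 297 in Tet2-/-, with overlap. The part of cell makeup in the CLP values, with the GMP markers also higher in some CLP libraries as given above, was not tested.

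Around the 10 genes, 4 lists of the wider pathway were read in the same fits. Of the regulators of p53 (damage kinases, acetylases, ribosomal proteins and others), 21 of 24 were tested in the average and none was called (1.76% of all genes were called lower and 1.73% higher), with a median log2 fold change of 0.20 against 0.06 over all genes. Within populations, Ppm1d, the phosphatase that switches the p53 response off and is itself a p53 target, fell in GMPs (24.7, 19.4, 9.82 and 10.6 CPM in WT, 5.43, 6.96, 6.67 and 3.40 in Tet2-/-, -1.54 ± 0.34 SE, adjusted p = 0.0199). Hipk2, a kinase that phosphorylates p53, rose in MEPs (4.22, 3.96, 5.47 and 3.76 against 10.4, 7.39, 11.7 and 8.38, 1.11 ± 0.25 SE, adjusted p = 0.0291). These 2 were the regulators called in any population, beside 4.37% of all genes called in GMPs in either direction and 0.147% called higher in MEPs.

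Of the 14 cell cycle and repair targets, all tested in the average, 2 fell and none rose, beside 1.76% of all genes called lower (median 0.06). Plk3, a stress-responsive polo-like kinase, fell in the average (-1.83 ± 0.32 SE, adjusted p = 0.000136), in CMPs (12.7, 22.8, 12.4 and 9.57 CPM in WT, 4.04, 1.79, 3.85 and 0.996 in Tet2-/-, adjusted p = 0.0159) and in GMPs (5.93, 13.1, 4.56 and 1.01 against 1.47, 1.22, 0.878 and 1.12, adjusted p = 0.0396). Its groups were apart in 5 of 6 populations, GMPs being the exception. Plk2, another kinase of the family, fell in the average (-1.53 ± 0.43 SE, adjusted p = 0.0209) and in CMPs, from 13.1 to 23.1 to 1.84 to 4.28 CPM (-2.71 ± 0.32 SE, adjusted p = 0.00102). Btg2, an antiproliferative gene, was apart on the lower side in 5 of 6 populations, for example 247 to 421 CPM in WT and 103 to 229 in Tet2-/- LT-HSCs, and its average of -0.98 ± 0.12 SE (adjusted p = 3.83e-07) fell short of 2-fold. Btg2 was named from the test among WT populations.

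Of the 14 apoptosis targets, Perp, a membrane protein of desmosomes, fell in CMPs (4.33 to 7.87 CPM in WT, 0.208 to 1.54 in Tet2-/-, -2.75 ± 0.56 SE, adjusted p = 0.0188) and in GMPs (1.91 to 7.68 against 0.217 to 1.35, adjusted p = 0.0479). Tnfrsf10b, the death receptor for TRAIL, fell in the average (-1.20 ± 0.28 SE, adjusted p = 0.00391). The list split evenly in the average (7 positive and 7 negative). Among the other targets, Gdf15, a stress-induced secreted factor, fell in CMPs (0.281, 1.36, 3.92 and 3.18 CPM in WT, at most 0.0259 in Tet2-/-, adjusted p = 0.0101). Ninj1, which drives rupture of the plasma membrane in dying cells, fell in MEPs (41.5, 34.7, 37.8 and 38.8 against 12.4, 15.2, 3.84 and 13.4, -1.77 ± 0.37 SE, adjusted p = 0.0214). In LT-HSCs, ST-HSCs and CLPs of the first set no gene of the 4 lists was called, where 0.0245%, 0.0185% and 0.00766% of all genes were called in either direction. In CMPs, MEPs and the average, where 3.92%, 4.21% and 1.76% of all genes were called lower, and in GMPs, where 4.37% were called in either direction, no list had more than 2 genes called. The interaction test called Gdf15 (adjusted p = 0.0409) and Ccnd2 (adjusted p = 0.0127) among these lists, beside 2.65% of all genes.

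Among WT populations the F test was passed by 10 of 21 regulators, 9 of 14 cell cycle and repair targets, 9 of 14 apoptosis targets and 8 of 12 other targets, beside 44.6% of all genes. Btg2 resembled Cdkn1a in part: it was 221 to 399 CPM in ST-HSCs and 93.7 to 145 in MEPs, but highest in CLPs (938 to 2349). It fell from CMPs to MEPs (-1.63 ± 0.27 SE, adjusted p = 0.000485) and from CMPs to GMPs (-1.71 ± 0.27 SE, adjusted p = 0.000718), as did Cdkn1a. Trp53inp1, an inducer of p53-dependent death and autophagy, was 106 to 654 CPM in CLPs and at most 78.0 in the other WT libraries of the first set (75.3 to 337 and at most 85.3 without TMM). Gadd45a, a growth arrest gene, was highest in MEPs (20.7 to 31.3 CPM, against 3.99 to 10.0 in CMPs). The ribosomal proteins Rpl5 and Rpl11, which bind Mdm2, and the nucleolar protein Npm1 were lowest in CLPs, with Rpl5 at 719.8 to 797 CPM there and 2074 to 2284 in MEPs.

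Genes with the pattern most like that of Trp53, Mdm2 and Cdkn1a were taken by Pearson correlation of log2 CPM over the 46 libraries, among 8866 genes with a mean of at least 10 CPM. For Trp53 they were Wdr18 (r = 0.864), Pebp1 (0.855) and Atp5a1 (0.851), and for Cdkn1a Rgs2 (0.922), Gpr171 (0.909) and Lsp1 (0.889). For Mdm2 they were Chkb (0.836), Bmyc (0.776) and Itm2b (0.775). The points share populations and genotypes, and the values are descriptions.

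The second set compared LT-HSCs labelled WT, Sting-/- and DKO. Tmem173 (Sting) itself was 0 to 46.1 CPM in WT libraries, 0 to 121 in those labelled Sting-/- and 0 to 26.1 in those labelled DKO. At least 1 library labelled Sting-/- thus had more Tmem173 than any WT library. As for Tet2, a deletion can leave counts on the rest of a gene, so this level does not check the labels. The study reports loss of STING by Western blot in bone marrow cells of both genotypes that lack Sting. The comparisons below are between labels. Of the 10 members 8 could be tested, and edgeR called 0 in each of the 3 comparisons, where 1.13% (DKO against WT), 0.00915% (Sting-/- against WT) and 0.686% (DKO against Sting-/-) of all genes were called. At an unadjusted p under 0.05 (edgeR) there were 1, 0 and 1 members in the same order, beside 14.6%, 5.05% and 11.3% of all genes, and DESeq2 called 1, 0 and 1, in each case Pmaip1, beside 12.4%, 4.14% and 11%. Trp53 read 331, 389.7 and 489 CPM in WT, 426, 516 and 599 under the label Sting-/- and 507, 327 and 907 under the label DKO. Cdkn1a read 653, 839 and 718 CPM in WT, 771, 878 and 1165 under the label Sting-/- and 319.9, 1121 and 1061 under the label DKO. The groups overlapped, and the log2 fold change of DKO against WT was 0.18 ± 0.40 SE. Bax read 64.4, 103 and 98.9, 35.3, 85.2 and 110.0 and 100.3, 44.5 and 36.8, and Mdm2 137, 64.0 and 149, 124, 76.5 and 50.5 and 77.5, 30.8 and 0.924, both with overlap between DKO and WT. Pmaip1 was 18.7, 115 and 0 in WT, 176, 0.507 and 0 under the label Sting-/- and 0.0952, 0 and 0 under the label DKO, so that each group holds a library at 0. Bbc3 was 10.4, 26.7 and 1.19 in WT, 4.18, 0.724 and 0.276 under the label Sting-/- and 0, 5.02 and 1.25 under the label DKO CPM, with overlap between the 3 groups. Phlda3 had reads in 1 of 9 libraries (1.33 CPM, WT) and Sesn2 in 4 of 9. Of the 4 wider lists only Ninj1 was called, lower in the libraries labelled DKO than in WT (-4.18 ± 0.65 SE, adjusted p = 0.0133) and than in those labelled Sting-/- (-4.21 ± 0.65 SE, adjusted p = 0.0151).

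**Figure D5:**
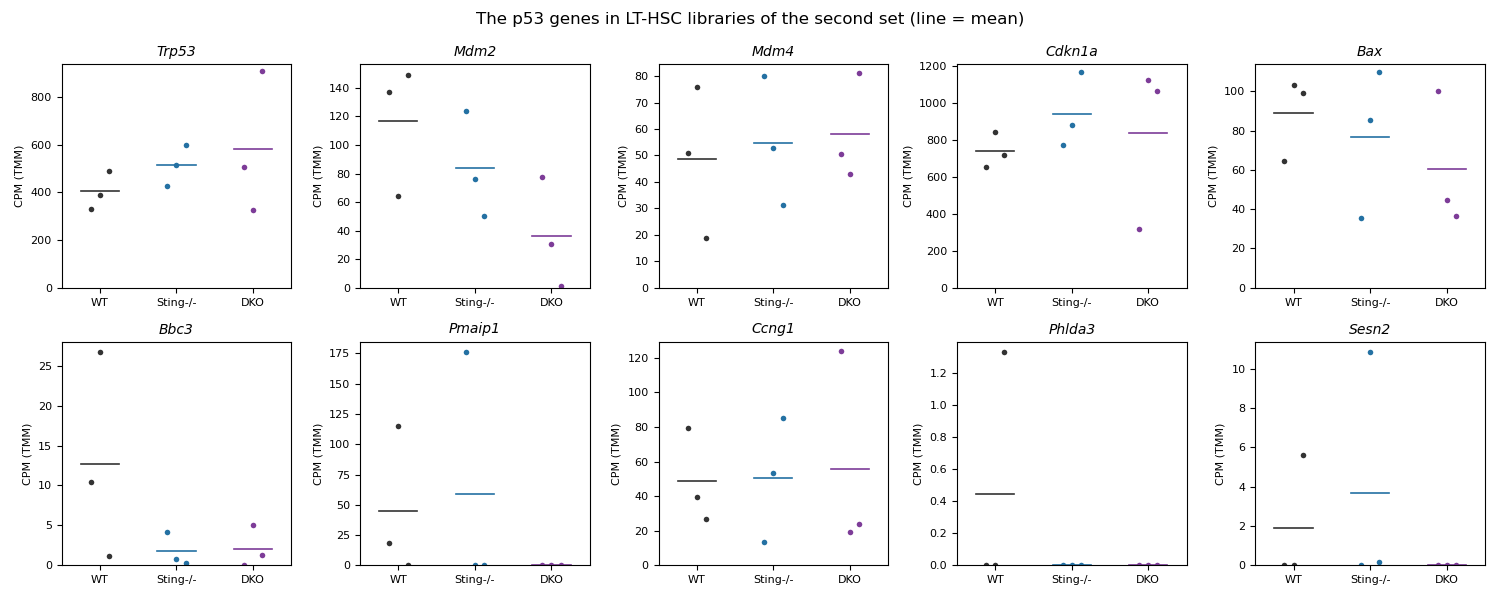
CPM (TMM) of the 10 genes in the 9 LT-HSC libraries of the second set, as points for libraries labelled WT, Sting-/- and Tet2;Sting DKO with a line at the mean. Points of 1 group spread widely, as for Mdm2 in libraries labelled DKO (0.924 to 77.5), and each panel has its own axis from 0.

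The spread within these groups was wide, and the 2 sets were normalized separately and are not compared in level. Xist was 91.4 to 244 CPM in WT libraries, 0 to 15.4 in those labelled Sting-/- and 0.014 to 0.254 in those labelled DKO. The level of Xist thus ran with the label, so its part in the differences from WT cannot be told apart from that of the genotype and was not tested. The set holds no libraries labelled Tet2-/- alone, so the effect of Tet2 loss with and without Sting was not compared.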

How the data were processed

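The authors sorted 200 cells per library by the labels (about 300 by the study's methods), amplified cDNA by a modified SMART-Seq2 protocol, trimmed reads with Trim Galore and mapped them to mm10 with HISAT2. The counter and its strand setting are not given in the sources used here. The deposited tables hold raw counts per gene, and 2 lines of the second table that name no gene were left out. Without molecular identifiers, reads are not independent molecules. CPM were computed from the deposited counts with TMM scaling. Differences were tested across genes by edgeR 4.0.16 under R 4.3.3 (glmQLFit and glmQLFTest, filterByExpr with a minimum count of 10, prior count 2, Benjamini-Hochberg adjustment over all genes tested). A gene was called at adjusted p under 0.05 and at least 2-fold, or at adjusted p under 0.05 for F tests over several groups. Each population was fitted with its own 2 genotypes, and the average and the interaction with all 46 libraries. Non-overlap is counted over genes tested in the fit of 46 libraries with a count in the population. Exact permutation tests (two-sided, log2(CPM + 0.5), SciPy 1.17.1) were run for single members. The members and lists were chosen with earlier results of these data known. From the 4 lists, genes called in a genotype comparison (at most 6 by smallest p) and the 6 of smallest p in the test among WT populations could be named. The immediate early list was added after the values were seen. Alternatives were DESeq2 1.42.0, limma 3.58.1 with the replicate of a genotype as a random block (correlation 0.0217), RLE scaling, no filter, no fold threshold, a replicate block, one fit of all libraries, plain library sizes without TMM for the WT comparisons (added after the data were seen) and leaving out each replicate. Same-numbered Tet2-/- and WT libraries did not deviate together (correlation -0.04 to 0.096 over 22 pairs). In data simulated from these libraries, 56 of 200 genes changed 4-fold were recovered for LT-HSCs, 103 for CMPs, 115 for MEPs, 0 for CLPs and 4 for DKO against WT. The last of these was simulated and fitted without the Sting-/- libraries, while the comparisons reported came from a shared fit of the whole second set. The study's text counts the replicates of its RNA-seq data as mice. The labels name no animal, so which libraries share a mouse is not known here. If same-numbered libraries of a genotype do, p-values of tests over several populations can be too small. Sums of some marker lists are not reported here.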

Additional observations from a re-analysis of the deposited data

Results flagged for a closer look

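Of 100 groups of 4 libraries (10 genes), 12 held a library far from the other 3 by Dixon's criterion, where chance flags about 1 in 20 groups of normally spread values. In 3 of the 12 the other 3 libraries were at 0, where any read in the fourth meets the criterion. Mdm2 was 89.9 CPM in 1 WT GMP library (the others 60.3 to 64.0) and 36.4 in 1 Tet2-/- CLP library (67.6 to 72.1). Mdm4 was 63.4 in 1 WT CMP library (74.7 to 76.9) and 191 in 1 Tet2-/- CLP library (116 to 126). Bax was 50.1 in 1 Tet2-/- MEP library (34.2 to 36.8), which still lies below every WT MEP library. Ccng1 was 97.1 in 1 Tet2-/- CMP library (69.8 to 73.2) and 133 in 1 Tet2-/- CLP library (64.8 to 73.4). Pmaip1 was 7.62 in 1 Tet2-/- LT-HSC library (0 to 0.0624), and Sesn2 was 1.23 in 1 Tet2-/- CLP library with the others at 0. Phlda3 was 12.9 in 1 Tet2-/- CLP library (0 to 0.235), 0.127 in 1 Tet2-/- ST-HSC library and 0.149 in 1 WT GMP library, with the others of these 2 groups at 0. Tet2-/- CLP replicate 2 was the high library for both Ccng1 and Phlda3.

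The genotype difference of Phlda3 differed among populations by the interaction test (edgeR, adjusted p = 0.0065). It was lower in Tet2-/- CMPs and MEPs, and the Tet2-/- means were above the WT means in the other 4 populations, all at or near 0 in WT.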

How the results depend on the processing

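Over 56 fold changes of Tet2-/- against WT within single populations and 767 alternatives, 741 kept direction and side of the threshold, 9 became called, 4 lost a call and 13 turned direction, none of these last called. Bax in MEPs was called in 14 of 14 alternatives. Bbc3 kept its call in the average in 6 of 13, and the call of Phlda3 for WT CMP against ST-HSC was lost in every fit that left out a replicate. Each count of members below has the share of all genes with an adjusted p that were called in the same fit beside it. Without a fold threshold the members called became 2 in CMPs (6.89%), 1 in GMPs (6.56%), 3 in MEPs (5.66%, with Mdm2), 5 in the average (6.94%), 2 for WT MEP against CMP (8.9%), 3 for WT CMP against ST-HSC (6.31%, with Trp53) and 3 for WT CLP against ST-HSC (28.1%, with Mdm4). With DESeq2, which called more genes in each comparison, they became 3 in CMPs (7.06% of genes, with Cdkn1a, adjusted p = 0.0196, and Bbc3, 0.000263), 3 in MEPs (6.11%, with Bbc3), 1 in CLPs (2.55%, Bbc3, -2.96), 2 in the average (11.7%, Bbc3, and Phlda3 higher, 6.90), 2 in the interaction (6.37%, with Sesn2), 10 and 8 in the tests among WT and among Tet2-/- populations (46.5% and 43.3%), 2 for GMP against CMP (7.28%), 2 for MEP against CMP (12%), 3 for CMP against ST-HSC (11.4%, with Bbc3), 4 for CLP against ST-HSC (29.4%), and 1 and 1 in the comparisons of the DKO with WT and Sting-/- (12.4% and 11%). The interaction gave 2 with limma (5.14%, with Sesn2), and no low-count filter left 0 in the average (1.93%). One fit of all 46 libraries gave 0 in CMPs (1.27%), 1 in MEPs (1.89%) and 2 in CLPs (6.61%, Sesn2 lower, -5.69, adjusted p = 0.00426, and Phlda3 higher, 6.90). Values of Phlda3 fitted with groups at 0 are no bounds. RLE scaling gave 10 in the test among WT populations (44.1%, with Sesn2) and 3 for CLP against ST-HSC (23.8%, with Mdm2, 1.16, adjusted p = 0.0466), and no low-count filter gave 7 in the former (27%). Without TMM the WT comparisons gave 6 in the test among populations (49.6%), 3 for CLP against ST-HSC (33.4%, with Cdkn1a) and no other change in number. The cause of these changes was not tested.

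With the replicate number as a block, the members called in CMPs became 0 (3.28%, Phlda3 lost its call, adjusted p = 0.106), and 6 instead of 9 passed the test among WT populations (38.1%) and 6 instead of 7 that among Tet2-/- populations (36.7%). Same-numbered libraries of the 2 genotypes did not deviate together, so the numbers do not pair them, and the block changed no other count of members. Between populations of 1 genotype, same-numbered libraries correlated at over 0.1 in 17 of 60 Tet2-/- pairs (highest 0.279, and all 4 pairs of CMP with MEP) and 9 of 51 WT pairs (highest 0.165). In the second set same-numbered libraries correlated at -0.08 to 0.0271, and the block left 0 called.

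Leaving out 1 replicate at a time gave 1 to 3 calls in MEPs (3.37% to 4.97% of all genes over these fits), 0 to 2 in the average (2.52% to 3.58%), 1 to 2 in the interaction (1.73% to 2.91%), 6 to 9 among WT (28.8% to 39.3%) and 2 to 6 among Tet2-/- populations (24% to 35.2%), 1 in each fit for CMP against ST-HSC (1.99% to 4.7%), 0 to 1 for LT-HSC against ST-HSC (0.0584% to 0.299%), 1 to 2 for MEP against CMP (3.32% to 5.36%) and 2 to 4 for CLP against ST-HSC (17.3% to 23.4%). The direction turned in some of these fits for Bax (-0.55 to 0.047) and Sesn2 (-0.30 to 0.78) in LT-HSCs, Sesn2 (-0.059 to 1.76), Bbc3 (-0.42 to 1.40) and Mdm2 (-0.69 to 0.23) in ST-HSCs, Sesn2 in CMPs (-0.27 to 0.041), Pmaip1 in MEPs (-0.41 to 0.71) and Mdm4 in CLPs (-0.11 to 0.18), given as the range of log2 fold changes.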
